A study of Mus musculus with 9 samples.

Results

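The midbrain GABAergic lineage genes described here were 9 genes grouped by their roles: the transcription factors Helt, Gata2, Gata3, Tal1, Tal2 and Sox14, and the genes for making and packaging GABA, Gad1, Gad2 and Slc32a1. All 9 were present once in the table of 21356 named genes and all 9 were among the 14041 genes expressed highly enough to be tested. Poly-A RNA was sequenced from the midbrain of C57BL/6 mouse fetuses at embryonic day E13.5, with 3 libraries for each of 3 genotypes. The floxed control was Gpr161 f/f without Cre, the Cre control was Gpr161 f/+;Wnt1-Cre, and the cKO was Gpr161 f/f;Wnt1-Cre, so that every group carried at least 1 floxed allele and the Cre control lacked 1 copy of Gpr161 in recombined cells. Gpr161 is a receptor of the primary cilium that holds back Sonic hedgehog (Shh) signaling, and Wnt1-Cre recombines in the dorsal neural tube, much of the midbrain and the cranial neural crest, not in one neuron type.

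Neurons that release GABA, the main inhibitory transmitter of the brain, arise in the midbrain from progenitors that make the repressor Helt. Gata2 then acts as a selector of the GABAergic fate over the glutamatergic one, with the bHLH factors Tal1 and Tal2, while Gata3 and Sox14 are used by GABAergic neurons that follow, Sox14 in subgroups of them. The mature transmitter phenotype needs glutamate decarboxylase, made from Gad1 and Gad2, which turns glutamate into GABA, and the vesicular transporter made from Slc32a1. Tal1, Gata2 and, in some cells, Gata3 are also used outside neurons, in blood-forming and endothelial cells, so that their level in whole tissue need not come from neurons alone.

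The deposited values are on a log2 scale, where 1 unit is a factor of 2, and a gene was called when the adjusted p of limma, a linear model with a shared estimate of the spread, was under 0.05. Gpr161 itself was not lower in the libraries labelled cKO, with means of 11.77 among floxed controls, 11.88 among Cre controls and 11.88 in cKO. Each gene has a single value over all its exons, so that this value does not check the deletion. The Cre transgene had a mark of its own, since Wnt1 was at 9.08 to 9.25 among floxed controls, 10.89 to 11.01 among Cre controls and 10.57 to 10.80 in cKO. As a check of the tissue, the midbrain genes En1 and En2 were high in every library (10.50 to 10.97 and 12.09 to 12.63). They belong to a list of 6 midbrain genes that did not all stay level. Versus floxed controls 1 of the 6 was called higher and 1 lower, and versus Cre controls 1 higher and 0 lower, neither of them En1 or En2. Over all genes tested the shares were 19.5% and 18.8%, and 4.86% and 4.85%. Among 10 genes listed as Shh targets, 8 were higher and 2, Boc and Cdon, lower in cKO than among floxed controls. Gli1 was up by 1.08 (adjusted p = 3.166e-05 in limma). The labels name embryos but no litters, so p-values here measure the spread between these samples, and in whole tissue fewer cells of a type and less RNA per cell cannot be told apart.

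Of the 9 genes, Helt and Gata2 were higher in cKO than in both control genotypes, Gata3, Sox14 and Gad1 were called lower only versus floxed controls, and Tal1, Tal2, Gad2 and Slc32a1 were called in neither comparison. Versus floxed controls 2 of the 9 were called higher and 3 lower, where over all genes tested 19.5% were called higher and 18.8% lower. Versus Cre controls 2 were called higher and 0 lower, and the shares over all genes were 4.86% and 4.85%. Between the Cre and the floxed control 0 of the 9 were called by limma, with 2 at an unadjusted p under 0.05 (Gata3 and Slc32a1), and over all genes 0.0499% were called higher and 0.00712% lower. Every cKO library lay above all 6 control libraries for 2 of the 9 genes, Helt and Gata2, a separation that 14.7% of all genes tested also had. For 0 of the 9 did every cKO library lie below all controls, which 11.5% of all genes did. The median log2 fold change of the 9 was -0.16 versus floxed controls and 0.02 versus Cre controls, beside 0.01 for all genes tested in both comparisons. The 2 comparisons share the cKO libraries, and with 9 genes these counts say little of the group as a whole, so that the genes are taken one at a time.

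The 4 transcription factors that were called are shown by the 300 bases around their RefSeq start (250 before and 50 after, build GRCm38.p6), in the direction of the gene, with the 2 called higher versus both controls before the 2 called lower versus floxed controls alone. Capitals mark 2 kinds of letters searched on both strands: the GATA forms (AGATAA with its variant TGATAA, and AGATAG with its variant TGATAG), and CAGCTG, 1 form of the E-box CANNTG that bHLH factors use. Helt is on chr8:46294622-46294921 (minus strand), Gata2 on chr6:88193641-88193940 (plus), Gata3 on chr2:9878551-9878850 (minus) and Sox14 on chr9:99876121-99876420 (minus).
Helt: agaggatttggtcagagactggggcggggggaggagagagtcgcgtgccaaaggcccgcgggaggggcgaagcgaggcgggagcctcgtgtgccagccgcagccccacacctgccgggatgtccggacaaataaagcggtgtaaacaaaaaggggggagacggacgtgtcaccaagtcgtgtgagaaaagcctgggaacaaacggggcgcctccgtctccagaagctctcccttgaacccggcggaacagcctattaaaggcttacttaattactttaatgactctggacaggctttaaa
Gata2: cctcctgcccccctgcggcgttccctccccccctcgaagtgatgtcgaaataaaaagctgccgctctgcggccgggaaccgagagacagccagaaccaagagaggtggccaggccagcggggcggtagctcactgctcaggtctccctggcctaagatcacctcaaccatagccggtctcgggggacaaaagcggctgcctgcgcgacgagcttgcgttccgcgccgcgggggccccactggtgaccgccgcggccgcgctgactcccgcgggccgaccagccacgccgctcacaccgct
Gata3: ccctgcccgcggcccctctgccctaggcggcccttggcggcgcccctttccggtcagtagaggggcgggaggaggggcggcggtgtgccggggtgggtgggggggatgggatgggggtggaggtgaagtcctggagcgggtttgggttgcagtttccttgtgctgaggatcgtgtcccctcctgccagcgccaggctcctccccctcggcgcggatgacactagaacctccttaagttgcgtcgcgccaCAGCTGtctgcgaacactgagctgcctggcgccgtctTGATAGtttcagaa
Sox14: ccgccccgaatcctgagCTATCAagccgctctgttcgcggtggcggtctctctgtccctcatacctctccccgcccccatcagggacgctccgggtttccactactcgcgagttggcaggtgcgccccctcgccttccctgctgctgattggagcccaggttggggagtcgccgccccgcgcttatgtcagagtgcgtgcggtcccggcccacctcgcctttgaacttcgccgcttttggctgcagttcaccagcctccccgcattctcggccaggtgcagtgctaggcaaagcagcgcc
The Gata3 window held TGATAG at position 37 and CAGCTG from position -1, counted with the first transcribed base as 1, and the Sox14 window held TGATAG on the opposite strand at -233. In the Helt and this Gata2 window neither was present. A GATA form was in 29.6% of all 32544 RefSeq windows, CAGCTG in 16.4% and any CANNTG in 72.3%, so that such matches are frequent and describe letters only. The letters GACCACC, the core of the site of the Gli factors of Shh signaling, were in 2.81% of all windows, in the first of 2 Tal1 windows at -34, and in no other window of the 9 genes. A second start of Gata2 held CAGCTG at 18, and the Slc32a1 window a GATA form at -157 and the first Tal1 window one at -205.

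Helt, the bHLH-orange repressor that acts first in this series of genes (GRCm38 chromosome 8, 46292039 to 46294671, minus strand, 4 exons), had the largest difference among the 9 in both cKO comparisons. The 3 floxed controls were at 8.28, 8.15 and 7.91 log2 units, the 3 Cre controls at 8.33, 8.14 and 8.35, and the 3 cKO at 9.24, 9.08 and 9.19. The cKO values were all high, the 2 control groups overlapped each other, and the lowest cKO lay 0.732 above the highest control. The fold change was 2.08 versus floxed controls (log2 1.06, 95% interval 0.85 to 1.27, adjusted p = 1.963e-04 in limma) and 1.86 versus Cre controls (log2 0.90, 0.68 to 1.11, adjusted p = 0.00167). By p, Helt stood at rank 44 and rank 24 of all genes tested. Leaving out any 1 library gave log2 differences of 0.96 to 1.14 and 0.83 to 0.94, and both calls passed in each of these fits. The Cre control differed from the floxed control by 0.16 (adjusted p = 0.398).

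**Figure D1:**
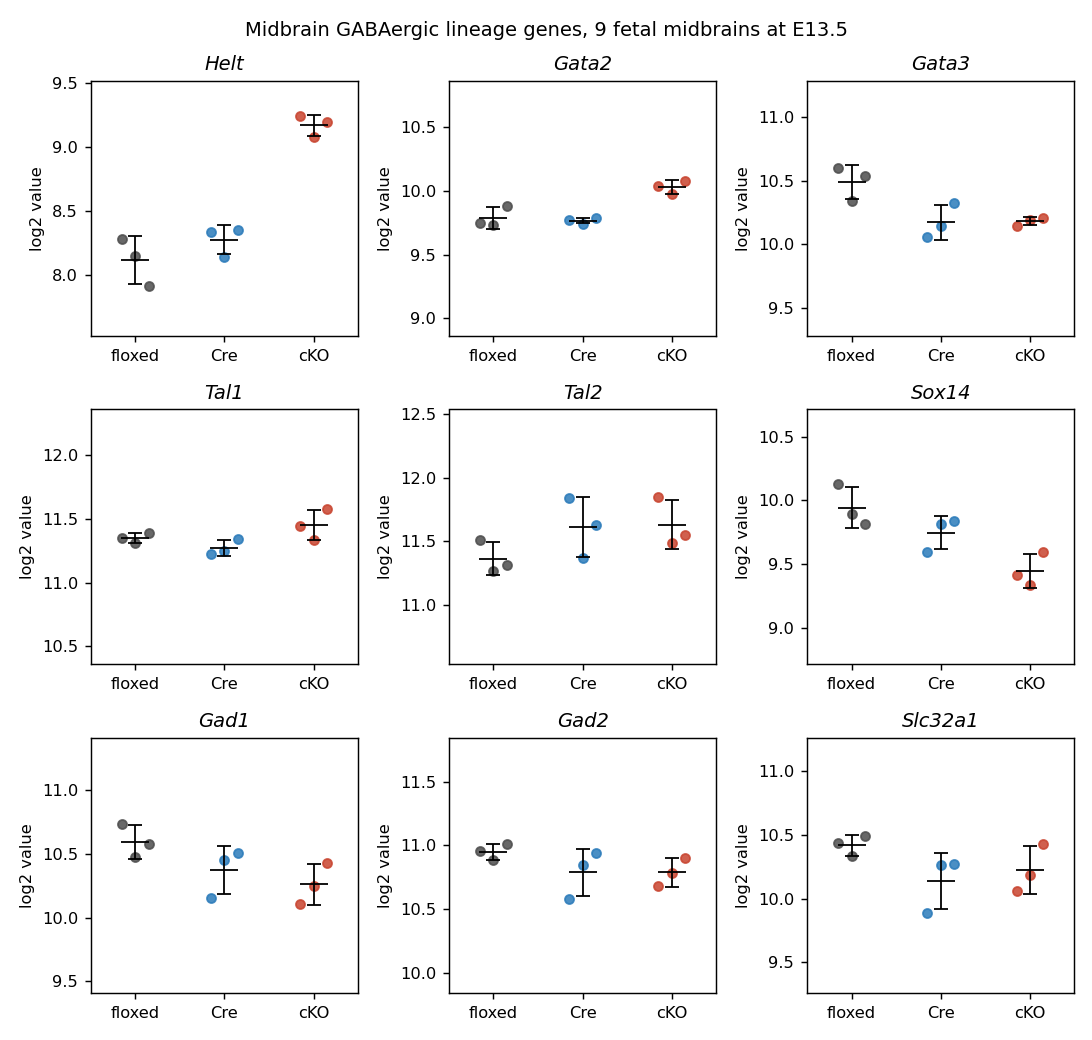
Log2 value of each of the 9 genes in every library, with 1 panel per gene, points for the 3 libraries of each genotype in replicate order, a bar at the mean and whiskers of 1 SD; each panel spans 2 log2 units. The cKO points of Helt and Gata2 lie above all 6 control points, and the cKO points of the other 7 genes overlap those of at least 1 control genotype.

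Gata2, the zinc finger selector of the GABAergic fate (chromosome 6, 88193891 to 88207032, plus strand), was higher in cKO by a small amount. Its values were 9.75, 9.73 and 9.88 among floxed controls, 9.77, 9.74 and 9.79 among Cre controls and 10.04, 9.98 and 10.08 in cKO. All 3 cKO libraries lay above all controls, by 0.0931 log2 units at the nearest point, and the controls overlapped. The differences were 0.24 versus floxed controls (fold 1.18, adjusted p = 0.00525) and 0.26 versus Cre controls (fold 1.20, adjusted p = 0.0177), both from limma. Versus floxed controls the call held without any 1 library. The call versus Cre controls was lost when Cre control replicate 2 (adjusted p = 0.0516), Cre control replicate 3 (0.0549) or cKO replicate 1 (0.0672) was left out, with the difference at 0.24 to 0.29 in all 9 such fits.

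Tal1 and Tal2 encode bHLH factors that work with Gata2 in these neurons, and neither was called. Tal1 (chromosome 4, 115056426 to 115071755) was at 11.35, 11.31 and 11.39 among floxed controls, 11.22, 11.25 and 11.35 among Cre controls and 11.45, 11.33 and 11.58 in cKO. Both control groups overlapped the cKO libraries. Its difference was 0.10 versus floxed controls (95% interval -0.03 to 0.24, adjusted p = 0.206; 0.04 to 0.16 with 1 library left out) and 0.18 versus Cre controls (0.04 to 0.31, adjusted p = 0.0860; 0.12 to 0.24). Tal2 (chromosome 4, 53779705 to 53788712) had the largest SE of the 9 (0.124), with 11.51, 11.27 and 11.31 among floxed controls, 11.84, 11.37 and 11.63 among Cre controls and 11.85, 11.49 and 11.55 in cKO. The groups overlapped, and the highest Cre control and the highest cKO were at nearly the same level. Tal2 differed by 0.26 from the floxed control (-0.01 to 0.54, adjusted p = 0.118; 0.16 to 0.34 with 1 library left out) and by 0.02 from the Cre control (-0.26 to 0.29, adjusted p = 0.942), intervals wide enough to hold differences as large as those of Gata2.

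Gata3, a zinc finger factor of the same family as Gata2 that is used later in the lineage (chromosome 2, 9857078 to 9890034, minus strand), was called lower in cKO than among floxed controls, while the Cre controls stood at the level of cKO. The floxed controls were at 10.60, 10.34 and 10.53, the Cre controls at 10.05, 10.14 and 10.32, and the cKO at 10.14, 10.19 and 10.20. Every cKO library lay below every floxed control and inside the range of the Cre control, which itself did not overlap the floxed control. The limma difference was -0.31 from the floxed control (95% interval -0.49 to -0.14, adjusted p = 0.0119) and 0.01 from the Cre control (-0.17 to 0.18, adjusted p = 0.966). The Cre control differed from the floxed control by -0.32, with an unadjusted p of 0.00236 and an adjusted p of 0.145 in limma. For this gene a difference linked to the Cre transgene or to the loss of 1 Gpr161 copy and a difference linked to the loss of both copies cannot be told apart in the comparison with the floxed control. Exons of Gata3 overlap those of 9230102O04Rik on the same strand and of the antisense gene Gm13256, and whether the strand was used in counting is not given in the sources used here.

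Sox14, which encodes an SRY-box factor of GABAergic subgroups and has a single exon (chromosome 9, 99874106 to 99876170, minus strand), was lowest in cKO. Floxed controls stood at 10.13, 9.89 and 9.81, Cre controls at 9.59, 9.81 and 9.84, and cKO at 9.41, 9.33 and 9.60. The cKO libraries were below every floxed control, and cKO replicate 3 and Cre control replicate 1 were at nearly the same level. The fall was 29.1% versus floxed controls, a log2 difference of -0.50 (95% interval -0.71 to -0.28, adjusted p = 0.00382 in limma). Versus Cre controls it was -0.30 (-0.52 to -0.08, adjusted p = 0.0791), and without Cre control replicate 1 it was -0.38 with an adjusted p of 0.0241. The Cre control differed from the floxed control by -0.20 (adjusted p = 0.325 in limma). As for Gata3, differences linked to the Cre transgene or to 1 Gpr161 copy cannot be told apart in the comparison with the floxed control. The calls of Gata3 and Sox14 versus floxed controls held when any 1 library was left out. Cre control replicate 1 was the lowest of its group for Gata3, Sox14, Gad1, Gad2 and Slc32a1.

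**Figure D2:**
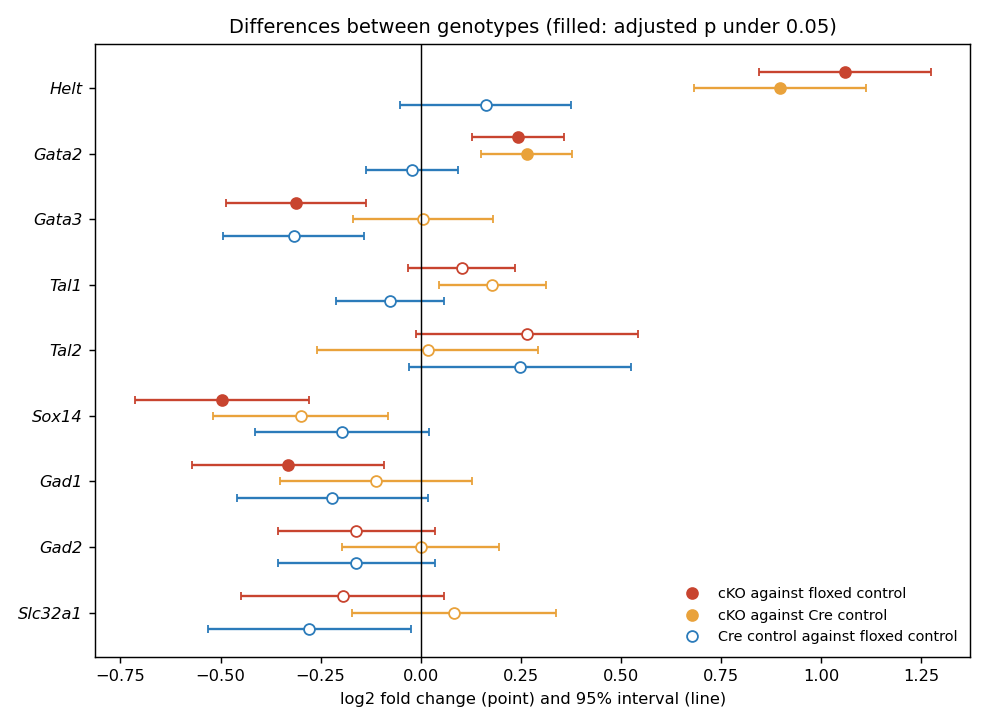
Log2 fold change of the 9 genes (points) with the 95% interval from limma (lines) in 3 comparisons, each in its own colour; filled points have an adjusted p under 0.05. Helt stands apart on the right at 1.06 and 0.90, the other 8 genes lie between -0.50 and 0.26 in the comparisons with cKO, and no point of the Cre control against the floxed control is filled.

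None of the 3 genes of the transmitter itself was called versus Cre controls. Gad1, for the decarboxylase isoform spread through the cell (chromosome 2, 70553072 to 70602014), was at 10.73, 10.47 and 10.58 among floxed controls, 10.16, 10.46 and 10.51 among Cre controls and 10.11, 10.25 and 10.43 in cKO. The cKO values lay just below all floxed controls and overlapped the Cre control. It fell by 0.33 on the log2 scale versus floxed controls (adjusted p = 0.0339 in limma) and differed by -0.11 from the Cre control (-0.35 to 0.13, adjusted p = 0.520; -0.22 to -0.04 with 1 library left out). The call was lost without floxed control replicate 1 (adjusted p = 0.122), floxed control replicate 3 (0.0774), cKO replicate 1 (0.127) or cKO replicate 2 (0.0837), with the difference between -0.41 and -0.26. The Cre control differed from the floxed control by -0.22 (adjusted p = 0.316 in limma), so that the limit given for Gata3 in the comparison with the floxed control holds for Gad1 too.

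Gad2 encodes the decarboxylase isoform found at nerve terminals (chromosome 2, 22622205 to 22693874). It was at 10.95, 10.89 and 11.01 among floxed controls, 10.58, 10.85 and 10.94 among Cre controls and 10.68, 10.78 and 10.90 in cKO. The groups overlapped, and the limma differences were -0.16 from the floxed control (-0.36 to 0.03, adjusted p = 0.173; 0.0472 without Cre control replicate 1) and -3.1e-04 from the Cre control (-0.20 to 0.20, adjusted p = 0.999). Slc32a1, for the transporter that loads GABA and glycine into vesicles (chromosome 2, 158610767 to 158615748), was at 10.43, 10.33 and 10.49 among floxed controls, 9.89, 10.26 and 10.27 among Cre controls and 10.06, 10.18 and 10.43 in cKO. The Cre controls lay below all floxed controls, and the cKO overlapped both. Its differences were -0.20 from the floxed control (-0.45 to 0.06, adjusted p = 0.202; -0.30 to -0.11 with 1 library left out) and 0.08 from the Cre control (-0.17 to 0.34, adjusted p = 0.660), and the Cre control differed from the floxed control by -0.28 (unadjusted p = 0.0350, adjusted p = 0.255). Its exons overlap the antisense gene Gm14205.

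Per kilobase of the longest annotated transcript, which stands in for the unknown mix of transcripts, the levels of the 9 genes ran from 6.72 to 33.1 cpm per kb among floxed controls. Tal2 (33.1 ± 3.09, SD, n = 3) was above Tal1 (23.1 ± 0.451), and next came Slc32a1 (18.2 ± 0.900), Sox14 (17.8 ± 2.10), Gata3 (16.7 ± 1.47) and Gad1 (16.0 ± 1.45), whose neighbours did not differ beyond their spread. Gad2 (12.8 ± 0.460), Gata2 (9.23 ± 0.478) and Helt (6.72 ± 0.893) followed, each apart from the gene before it. In cKO, Helt was no longer the lowest, at 13.8 ± 0.778 cpm per kb, and Gata2 (10.8 ± 0.341) and Gad2 (11.4 ± 0.833) were, without a difference beyond their spread. Sox14 moved from above Gata3 and Gad1 to below them (12.5 ± 1.13, against 13.3 ± 0.245 and 12.6 ± 1.34), within their spread, while Tal2 (39.5 ± 5.51) and Tal1 (24.6 ± 1.95) kept the first places.

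Pairs of genes were also compared within each library, where a scaling shared by all genes of a library cancels. Sox14 minus Helt was 1.83 ± 0.0817 among floxed controls, 1.48 ± 0.204 among Cre controls and 0.28 ± 0.118 in cKO (log2, SD, n = 3). Gata3 minus Gata2 was 0.70 ± 0.126, 0.41 ± 0.127 and 0.15 ± 0.0559 in the same order. These 2 pairs set a gene called lower against a gene called higher, so that their separation in cKO follows in part from the choice. Tal2 minus Tal1 was 0.01 ± 0.127, 0.34 ± 0.254 and 0.18 ± 0.214, with overlap between the genotypes, and Gad1 minus Gad2 was -0.36 ± 0.117, -0.42 ± 0.0210 and -0.53 ± 0.0478. The differences are given as values, and no test of them was run.

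The glutamatergic counterpart was Slc17a6, the vesicular glutamate transporter of midbrain excitatory neurons, at 11.39, 11.37 and 11.32 among floxed controls, 10.96, 11.17 and 11.31 among Cre controls and 10.56, 10.82 and 10.65 in cKO. All cKO libraries were below all controls, by -0.68 versus floxed controls (adjusted p = 6.91e-04 in limma) and -0.47 versus Cre controls (adjusted p = 0.0155; 0.0524 with Cre control replicate 3 left out and 0.0652 with cKO replicate 1 left out). Gad2 minus Slc17a6 was -0.41 ± 0.0852 among floxed controls, -0.36 ± 0.0279 among Cre controls and 0.11 ± 0.144 in cKO. Slc32a1 minus Slc17a6 was -0.94 ± 0.102, -1.01 ± 0.0846 and -0.45 ± 0.210, and Gad1 minus Slc17a6 was -0.77 ± 0.120, -0.78 ± 0.0488 and -0.41 ± 0.176. For each of these 3 genes every cKO library lay above every control in the difference to Slc17a6, which held for 82.2% of all other genes tested. On this scale a gene with no change of its own would be higher by the same amounts by which Slc17a6 was lower, and none of the 3 was itself called higher in either comparison. With the erythroid covariate Slc17a6 was at -0.53 (adjusted p = 0.0521 in limma) and -0.32 (adjusted p = 0.502). With libraries centred on the pan-neuronal genes it was at -0.19 versus floxed controls (adjusted p = 0.0565) and not called. In that setting it was at -0.24 versus Cre controls and still called.

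**Figure D3:**
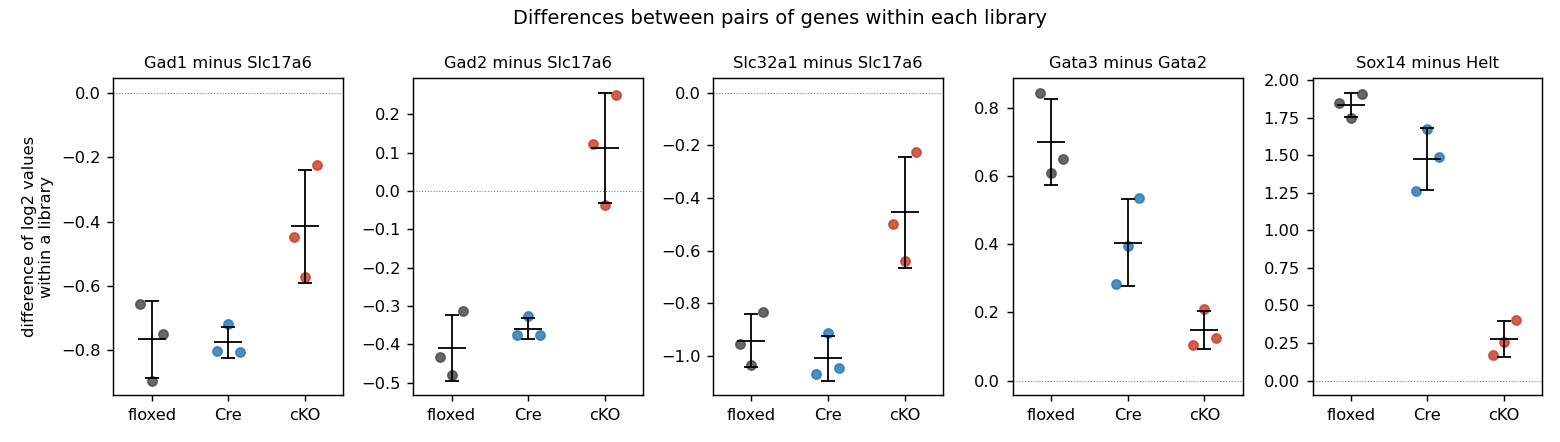
Difference of the log2 values of 2 genes within each library (points, 3 per genotype), with the mean (bar) and 1 SD (whiskers); each panel has its own vertical axis. In the 3 panels against Slc17a6 the cKO points lie above all controls, and in the panels Gata3 minus Gata2 and Sox14 minus Helt they lie below all controls.

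The other regulators of GABAergic development, a list of 18 genes, had 2 called higher and 4 lower in cKO than among floxed controls, and 2 higher and 1 lower than among Cre controls, with median differences of -0.02 and -0.07. Beside these and the lists below stand the shares over all genes tested. They were 19.5% higher and 18.8% lower versus floxed controls, and 4.86% and 4.85% versus Cre controls. The 2 higher ones in both comparisons were Nkx2-2 (0.72 and 0.62, adjusted p = 0.00104 and 0.0119 in limma) and Nkx6-1 (0.36 and 0.34, adjusted p = 0.00209 and 0.0138; 0.0520 versus Cre controls when Cre control replicate 3 was left out), homeobox genes of the ventral neural tube that respond to Shh. Lhx1, a homeobox gene of young GABAergic neurons, was at -0.09 (adjusted p = 0.428) and 0.06. Of the cofactors that bind Gata factors, Zfpm1 was at 0.11 (adjusted p = 0.218) and 0.22 (adjusted p = 0.0692), and Zfpm2 was lower than among floxed controls (-0.28, adjusted p = 0.00922) and at -0.09 versus Cre controls. Pax2 was lower than among floxed controls alone (-0.63, adjusted p = 0.0146, 0.0517 when cKO replicate 1 was left out, and -0.06 versus Cre controls). The count of 4 lower was 1 without cKO replicate 1.

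Genes for GABA breakdown, uptake and receptors were lower in cKO in 12 of 20 versus floxed controls and in 7 of 20 versus Cre controls, with 0 higher in limma in both and medians of -0.38 and -0.20. The receptor subunits Gabra2 (-0.66 and -0.61) and Gabra5 (-0.58 and -0.53) passed in both. The metabotropic receptor Gabbr1 (-0.46 and -0.23) also did, but its call versus Cre controls was lost when Cre control replicate 2 (adjusted p = 0.0816 in limma), Cre control replicate 3 (0.0961), cKO replicate 1 (0.117) or cKO replicate 2 (0.0754) was left out. Abat, which breaks GABA down, was at -0.04 versus floxed controls (adjusted p = 0.645 in limma). Receptors of this list are made by many neurons, not by GABAergic ones alone. The 7 versus Cre controls became 2 when cKO replicate 1 was left out and 11 when Cre control replicate 1 was.

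Peptide and calcium-binding genes of GABAergic subtypes were lower in 6 of 9 versus floxed controls and 3 of 9 versus Cre controls (medians -0.33 and -0.20), with 0 higher. Calb2 (-0.64 and -0.53) and Tac1 (-0.44 and -0.42) passed in both comparisons, Tac1 not versus Cre controls when Cre control replicate 3 (adjusted p = 0.0618 in limma) or cKO replicate 1 (0.0653) was left out, and Npy (-0.58 and -0.20) and Pvalb (-0.64 and -0.43) versus floxed controls alone. Versus Cre controls the 3 were 1 without cKO replicate 1. Slc6a5, the glycine transporter of inhibitory neurons of the hindbrain and spinal cord, was lower by -0.89 (adjusted p = 0.00112 in limma) than among floxed controls and at -0.24 (adjusted p = 0.252) versus Cre controls. It moved with Hox genes of the hindbrain, of which Hoxa2 differed by -0.85 and 0.02, and 4 of 6 hindbrain genes were lower than among floxed controls (2 without cKO replicate 3) and 0 of 6 than among Cre controls. Levels were low for Pvalb (5.44 to 5.46 in cKO), Slc6a5 (5.55 to 5.72) and Hoxa2 (5.68 to 5.82). The limit for testing was at 4.72 to 4.77, and values are compressed at low expression. Of the forebrain genes 0 of 4 were called in both comparisons by limma, but Nkx2-1 and Dlx1, a homeobox gene of forebrain GABAergic neurons named here after its values were seen, were uneven among Cre controls. Dlx1 was at 5.33, 6.69 and 7.75 there, between 5.26 and 5.71 among floxed controls and between 5.70 and 5.76 in cKO, and Nkx2-1 at 5.87, 6.82 and 7.33 among Cre controls and between 5.65 and 6.51 in the other libraries. Cre control replicate 1, the lowest of its group in Gad1, Gad2 and Slc32a1, was also the lowest in both. The part of the hindbrain and forebrain genes in the values of the 9 genes was not tested.

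Genes of other cell types moved with the genotypes too. The pan-neuronal genes, such as Snap25 and Dcx, were lower in 12 of 12 versus floxed controls and 4 of 12 versus Cre controls (medians -0.53 and -0.23). The 4 were 0 when Cre control replicate 2, Cre control replicate 3, cKO replicate 1 or cKO replicate 2 was left out. They were 9 with Cre control replicate 1 left out. Glutamatergic genes were lower in 7 of 10 and 6 of 10, led by Pou4f2 (-0.97 and -0.89) and Tfap2d (-0.71 and -0.68), with 2 and 0 higher (the 6 were 4 without Cre control replicate 3). Progenitor genes were higher in 8 of 10 and 4 of 10, among them Sox1 (0.44 and 0.41) and Nes (0.50 and 0.45; the 4 were 2 without cKO replicate 1), with 0 lower. Set against the mean of the pan-neuronal genes of its own library, Gad2 was at -2.45 ± 0.0211 among floxed controls, -2.35 ± 0.0416 among Cre controls and -2.12 ± 0.0450 in cKO (log2, SD, n = 3), with no overlap, and Sox14 was at -3.46 ± 0.205, -3.39 ± 0.0283 and -3.46 ± 0.134, with the cKO inside the floxed range. On this scale 6 of the 9 genes were called higher in cKO than among floxed controls by limma: Helt (1.56), Tal2 (0.76), Gata2 (0.74), Tal1 (0.60), Gad2 (0.34) and Slc32a1 (0.30), while Gata3 and Gad1 were at 0.19 and 0.17 and not called. Versus Cre controls 5 were called, among them Tal1 (0.41, adjusted p = 0.0131), where 36.4% of all genes passed. This scaling adds 0.50 to the difference of every gene from the floxed controls, and 89% of all genes tested passed under it.

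**Figure D4:**
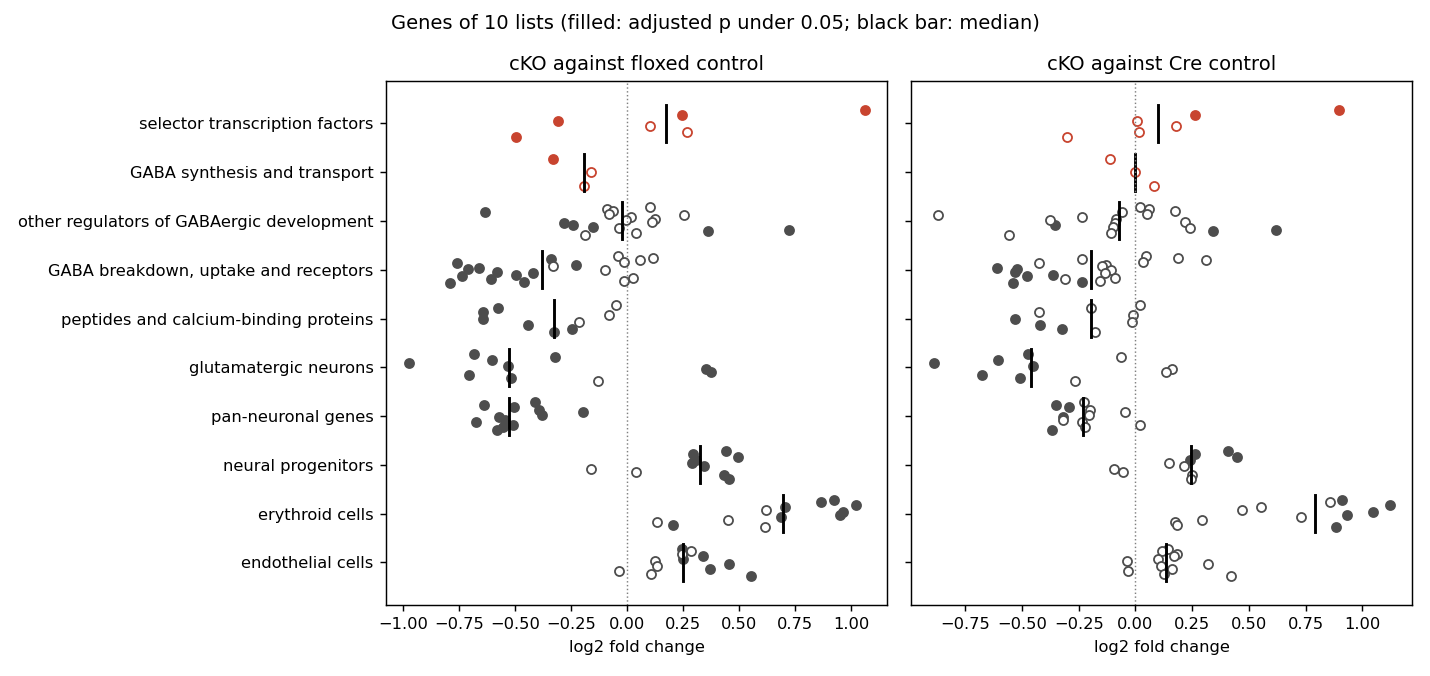
Log2 fold change of every tested gene of 10 lists in cKO against each control, with filled points at an adjusted p under 0.05, red points for the 9 genes of the lineage and a black bar at the median of the list. Most genes of neurons lie left of 0, most genes of progenitors and of erythroid and endothelial cells right of 0, and the 3 GABA synthesis and transport genes lie nearer to 0 than the medians of the pan-neuronal genes, -0.53 versus floxed controls and -0.23 versus Cre controls.

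Blood and vessel genes matter here because Gata2 and Tal1 are made in those cells as well. Erythroid genes were higher in 8 of 12 versus floxed controls and 5 of 12 versus Cre controls (medians 0.69 and 0.79), with summed levels of 5710 to 9752 cpm among floxed controls, 6817 to 8031 among Cre controls and 8840 to 16915 in cKO. The 8 were 1 without cKO replicate 1, and the 5 were 0 without Cre control replicate 2, Cre control replicate 3 or cKO replicate 1. Gata1, which defines the erythroid lineage, lay between 4.22 and 4.40 in all 9 libraries, under the level at which genes were tested. Endothelial genes were higher in 6 of 12 versus floxed controls (2 without floxed control replicate 1) and 0 of 12 versus Cre controls, with summed levels of 266 to 342, 295 to 365 and 348 to 372 cpm. Leukocyte genes were higher in 0 of 8 in both comparisons, with 1 lower than among floxed controls.

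With the mean erythroid level of each library as a covariate, an alternative chosen after seeing the data, 1 of the 9 genes was called versus floxed controls and 0 versus Cre controls by limma, where 3.46% and 0.0783% of all genes passed. Helt was at 1.01 (adjusted p = 0.0187) and 0.85 (adjusted p = 0.134) in that fit, and Gata2 at 0.22 (adjusted p = 0.150) and 0.24 (adjusted p = 0.476). With the endothelial level instead, also chosen after seeing the data, Helt was at 1.20 and 0.98 and Gata2 at 0.27 and 0.28, and both genes were called in both comparisons. Both covariates went with the genotype. The mean erythroid level was 11.4 to 12.2 in cKO and 11.2 to 11.3 among Cre controls, without overlap. The endothelial level was 9.14 to 9.21 in cKO, above floxed (8.75 to 9.08) and Cre controls (8.90 to 9.13). These fits therefore cannot tell the covariate and the genotype apart, and what a lost call came from was not tested. Sox14 was at -0.50 (adjusted p = 0.0971) with the erythroid and -0.45 (adjusted p = 0.0546) with the endothelial covariate versus floxed controls, Gata3 at -0.17 (0.366) and -0.23 (0.168), and Gad1 at -0.23 (0.438) and -0.33 (0.171). The lists shrank as well with the erythroid covariate versus floxed controls, to 0 of 12 pan-neuronal, 2 of 10 glutamatergic, 4 of 20 GABA breakdown, uptake and receptor genes and 0 of 9 peptide and calcium-binding genes lower, and to 3 of 10 progenitor genes higher, and versus Cre controls to 0 in each of these lists. Without a covariate but with a fold change over 1.5 required, the counts in the same order were 2, 4, 6 and 2 lower and 0 higher versus floxed controls. Versus Cre controls they were 0, 3, 1 and 0 lower and 0 higher.

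**Figure D5:**
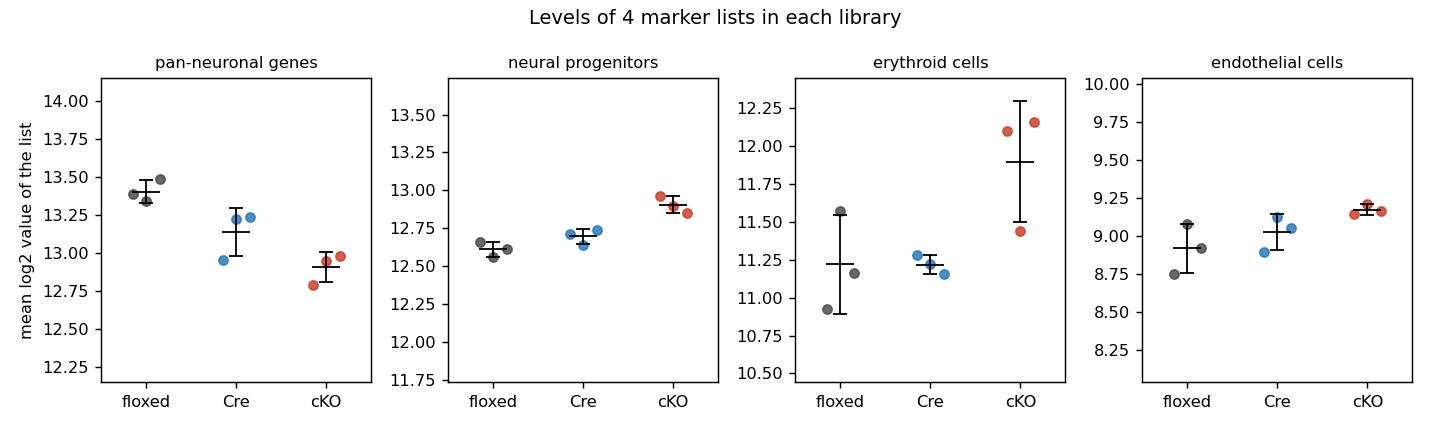
Mean log2 value of the tested genes of 4 marker lists in each library (points), with the group mean (bar) and 1 SD (whiskers); each panel spans 2 log2 units. The mean pan-neuronal level is lowest in cKO, with an overlap with the Cre controls, the progenitor level is highest in the 3 cKO libraries, and the erythroid level is spread widely, from 11.4 to 12.2 in cKO and from 10.9 to 11.6 among floxed controls.

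Among all genes tested, those with the most similar course over the 9 libraries were found by the root mean square difference of values centred on each gene's own mean, in log2 units. For Helt they were Pappa (0.107), Gli1 (0.126) and Otx1 (0.150), beside a spread of Helt itself of 0.479. Gata2 was nearest to Smpd2 (0.0326), Ccnjl and Ssx2ip, Gata3 to Mab21l2 (0.0596), Gm3696 and Jmy, Sox14 to Zfp57 (0.0517), Aldh1l2 and Scn1a, and Clip2 (0.0551) and Reep2 (0.0578) were among the 3 nearest to Gad1. Among the 9 genes themselves the closest pairs were Gad2 with Slc32a1 (0.0681), Gata2 with Tal1 (0.0757) and Gad1 with Gad2 (0.0930). The measure uses the same libraries as the comparisons and, for genes that vary little, is small for many genes, so it is a description.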

How the data were processed

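RNA was sequenced from the midbrain of 9 fetuses, 3 per genotype, after poly-A selection. The authors deposited 1 table of log2 values, normalized between libraries and compressed at low expression. The transformation, and whether counting used the strand, are not given in the sources used here. The submitters' processing notes in the labels name FastQC 0.10.1, kallisto 0.46.1, DESeq2 and the build mm10, with which the authors processed the reads. Read counts and depth are unknown, so no counting interval is given. The linear values summed to 26391051 to 27283066 per library over named genes, and cpm was computed from them.

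Named genes with at least 1 cpm (4.72 to 4.77 on the log2 scale) in at least 3 libraries were kept, 14041 of 21356. Another 5764 of the 27360 rows had no name and 240 repeated a name. Genotype means were fitted to all 9 libraries with limma 3.58.1 in R 4.3.3 (trended eBayes, two-sided, Benjamini-Hochberg), and tested on simulated data. Intervals are unadjusted 95% intervals. Alternatives changed the filter, threshold, libraries, scaling, replicate block and covariates. Positions and transcript lengths are from GENCODE M21 (GRCm38) and start-site windows from RefSeq (9 of 9 genes matched).

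The members and gene lists were chosen with earlier results of these data known. The genes named were the 9 members, up to 4 genes per list with the smallest adjusted p against the floxed control, Zfpm1, Zfpm2, Lhx1, Slc17a6, Slc6a5, Abat and Gata1, 3 similar profiles per called member, Gpr161 and Wnt1. En1 and En2 were added as tissue checks, and Boc and Cdon as the 2 lower genes of the Shh list. Some genes that the rule names are not reported here.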

Additional observations from a re-analysis of the deposited data

How the results depend on the processing

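In cKO against the floxed control 5 of the 9 genes were called. Requiring a fold change over 1.5 as well left 1 (2.92% of all genes), the erythroid covariate 1 (3.46%) and the endothelial covariate 3 (22.7%). Against the Cre control 2 were called, with 1 left by the fold limit (0.563%), 5 with libraries centred on the pan-neuronal genes (36.4%), 0 with the erythroid covariate (0.0783%), and 1 to 3 when 1 library was left out (1.67% to 23.5%). Between the controls 0 were called, and 2 under the pan-neuronal centring (48.9%). That centring adds 0.50, 0.23 and 0.27 to every gene in the 3 comparisons, and signs turned: against the floxed control Gata3 was 0.19, Sox14 0.0013, Gad1 0.17, Gad2 0.34, Slc32a1 0.30, Zfpm2 0.21, Gabbr1 0.035, Tac1 0.053 and Atoh1 0.069. Against the Cre control Gad1 was 0.12 and Gad2 0.23, and between the controls Gata2 was 0.25, Tal1 0.19, Sox14 0.071, Gad1 0.047 and Gad2 0.11.

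Differences near 0 also changed sign against the Cre control: Gata3 was -0.0041 with libraries centred on their medians and -0.0027 with quantile normalization, Gad2 0.0012 with quantile normalization and 0.048 with the erythroid covariate, and Tal2 -0.014 with that covariate. With 1 library left out, the differences from the Cre control were -0.052 to 0.082 for Gata3, -0.10 to 0.13 for Tal2, -0.10 to 0.075 for Gad2 and -0.043 to 0.17 for Slc32a1, and Gata2 differed between the controls by -0.051 to 0.026. The cause of these changes was not tested.

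With the replicate block 6, 3 and 0 genes were called (40.5%, 12.7% and 0.0641% of all genes), since Tal2 passed against the floxed control (adjusted p = 0.00486 in limma) and Tal1 against the Cre control (adjusted p = 0.0368). The numbers name no shared litter, and for that reason they were not taken as pairs. With each genotype's mean subtracted, correlations between libraries sharing a number ran from -0.0273 to 0.26, and 5 of 9 were over 0.1. Between libraries of different numbers they ran from -0.282 to 0.161, and 3 of 18 were over 0.1. Libraries sharing a number thus tended to be more alike, with overlap. Whether the numbers stand for pairs was not tested, and the calls of Tal1 and Tal2 depend on this choice.

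Helt was called against both controls under every alternative but the erythroid covariate, which kept it against the floxed control only. The number of libraries limits these tests, and all 9 genes also passed a minimum of 5 cpm. Over all alternatives the share of all genes called ran from 2.92% to 89% versus floxed controls (38.3% as reported), from 0.0783% to 36.4% versus Cre controls (9.71%) and from 0.00712% to 48.9% between the controls (0.057%).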
